A study of Rattus norvegicus with 19 samples.

Results

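The genes Nr3c1, Nr3c2, Fkbp5 and Sgk1 of corticosteroid signalling were followed in the paraventricular nucleus (PVN) of the hypothalamus. Nr3c1 (ENSRNOG00000014096) and Nr3c2 (ENSRNOG00000034007) encode the receptors, and Fkbp5 (ENSRNOG00000022523) and Sgk1 (ENSRNOG00000011815) are genes that corticosteroids are known to induce. They were picked by their Ensembl identifiers, and all 4 of these were present among the 30560 genes of the count table, so none was dropped. All 4 also lay above the limit on low counts used for testing, a mean of more than 5 normalized counts, in every comparison. RNA had been taken from bilateral 1 mm punches of 19 rats aged 14 weeks. Of the males 4 were Wistar and 5 SHR, and each strain had 5 females. SHR, the spontaneously hypertensive rat, is an inbred strain that becomes hypertensive without treatment, and the Wistar rat is an outbred normotensive stock. The strains therefore differ across the genome and not in blood pressure alone. By the study's methods, rats of all groups had been implanted with a blood pressure telemetry probe under ketamine and xylazine, were given the antibiotic gentamicin and the anti-inflammatory drug carprofen around surgery, and were housed singly afterwards. Females were examined in dioestrus. Each library is labelled as a separate rat. Levels are given as CPM, a gene's counts relative to the total of its library, scaled between libraries by TMM (trimmed mean of M values), and differences as log2 fold changes from edgeR's quasi-likelihood test. A gene was called where its Benjamini-Hochberg adjusted p over all genes tested was under 0.05.

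Corticosterone, the main glucocorticoid of rats, enters cells and binds 2 related nuclear receptors, the glucocorticoid receptor encoded by Nr3c1 and the mineralocorticoid receptor encoded by Nr3c2. Once bound, the receptors move to the nucleus and raise or lower transcription of their target genes. In the PVN, glucocorticoids are known for negative feedback on the neurons that drive the hypothalamic-pituitary-adrenal axis. Fkbp5 encodes a co-chaperone of the Hsp90 complex that lowers the affinity of the glucocorticoid receptor for its hormone, which closes a short feedback loop inside the cell. Sgk1 encodes a serine/threonine kinase that is best known for raising sodium transport in epithelia, and its mRNA also responds to signals other than steroids. Neither corticosterone nor blood pressure is in the count table, so levels of mRNA are described here without them.

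Totals per library lay between 44943945 and 58793511 counts. A member had between 1059 and 6686 counts in a library, so its counting error was at most 3.07%, or at most 4.35% if a fragment added 2 counts. In the range of 1 to 100 counts, 73.9% of values were even numbers. Libraries of 1 group differed from each other by more than sampling noise in every pair, and each was kept as 1 sample. No relation of a member with the replicate number or the total count of a library was shown within groups (8 relations, Pearson's r between -0.34 and 0.10, permutation test, all adjusted p at least 0.933; Spearman's rho between -0.28 and 0.19, all adjusted p 0.945). Without the 2 libraries farthest from the median of the number or total, r lay between -0.36 and 0.56, and these values were not tested. The highest was that of Fkbp5 with the total count, where r over all 19 libraries was 0.10. The lowest was that of Sgk1 with the replicate number, where it was -0.15. The labelled tissue was not checked against marker genes of the PVN or of other cell types, since the identifiers in the table come without symbols. In bulk tissue, fewer cells of a type and less RNA per cell cannot be told apart, and the part that the makeup of the punches has in the differences below was not tested.

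The glucocorticoid receptor gene Nr3c1 lay in a narrow range in all libraries, between 109.95 and 130.4 CPM. Its level was 114.8, 124.0, 129.3 and 114.9 CPM in the Wistar males and 109.95, 120.0, 121.2, 114.0 and 119.1 CPM in the SHR males. In females it was 123.1, 126.0, 126.5, 123.5 and 117.3 CPM in Wistar and 112.4, 114.4, 130.4, 124.0 and 111.3 CPM in SHR. The 4 groups overlapped throughout, and the highest single library was that of an SHR female. Means were 120.7 ± 7.13 CPM (SD, n = 4) in male Wistar and 116.8 ± 4.72 CPM (SD, n = 5) in male SHR. For females they were 123.3 ± 3.68 CPM (SD, n = 5) in Wistar and 118.5 ± 8.32 CPM (SD, n = 5) in SHR. SHR against Wistar, the log2 difference was -0.05 in males (SE 0.05, edgeR adjusted p = 0.594) and -0.07 in females (SE 0.06, edgeR adjusted p = 0.601), and neither was called. Averaged over the sexes, the 95% interval of the SHR level reached from 0.914 to 1.02 times that in Wistar.

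Nr3c2, the mineralocorticoid receptor gene, likewise showed no separation of the groups. It stood at 27.3, 28.0, 30.3 and 22.5 CPM in Wistar males and at 27.6, 28.3, 31.5, 30.6 and 24.8 CPM in SHR males. Wistar females had 25.2, 27.9, 27.8, 28.6 and 26.8 CPM, and SHR females 30.7, 25.8, 27.4, 30.7 and 27.05 CPM. The lowest library was that of a Wistar male and the highest that of an SHR male. The log2 difference of SHR against Wistar was 0.08 in males (SE 0.09, edgeR adjusted p = 0.609) and 0.05 in females (SE 0.07, edgeR adjusted p = 0.770), and the interval of the average over sexes reached from 0.963 to 1.14 times the Wistar level. Neither receptor gene passed the threshold between the strains.

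Since the 2 receptors bind the same hormone with different affinity, the count ratio of Nr3c1 to Nr3c2 in each library was also compared between groups; it is a ratio of counts that were not divided by gene length, so only its differences between groups can be read. It averaged 4.50 ± 0.409 (SD, n = 4) in male Wistar against 4.12 ± 0.424 (SD, n = 5) in male SHR. Among females it was 4.53 ± 0.219 (SD, n = 5) in Wistar against 4.20 ± 0.418 (SD, n = 5) in SHR. Values ran from 4.21 to 5.10 in Wistar males and from 3.73 to 4.80 in SHR males, and from 4.31 to 4.88 in Wistar females and from 3.66 to 4.76 in SHR females. The means were lower in SHR in both sexes, the ranges overlapped in both, and no test was run on the ratio.

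**Figure D1:**
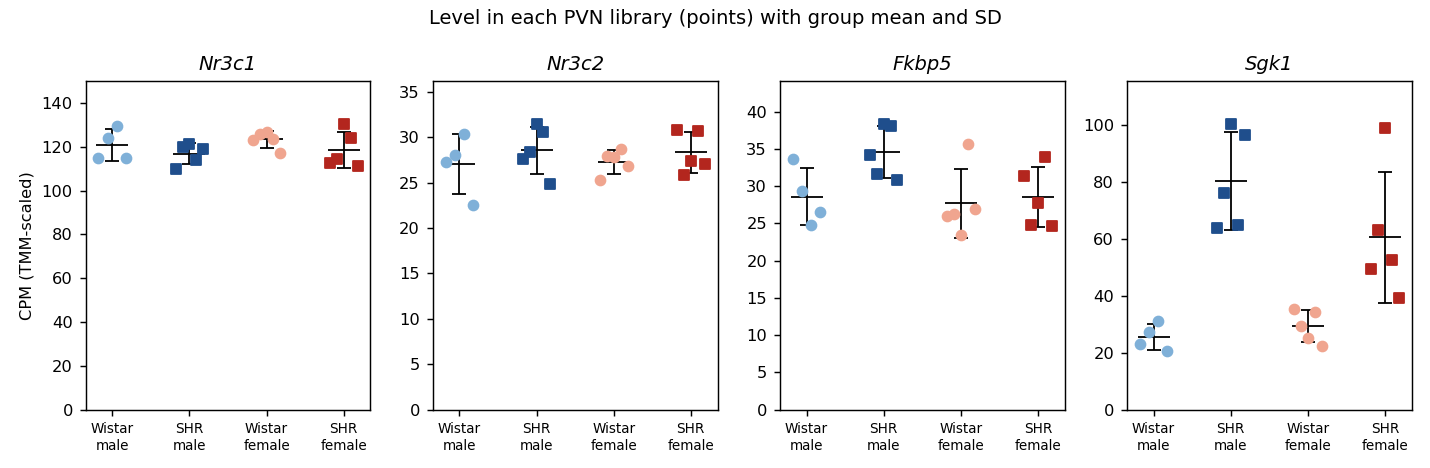
Levels of the 4 genes in CPM (TMM-scaled, linear axis from 0) in each library, as points, with the group mean and SD as lines, for 4 male Wistar rats and 5 rats in each other group. In Sgk1 alone of the 4 genes, every SHR library lies above every Wistar library of either sex, while the groups overlap in Nr3c1, Nr3c2 and Fkbp5.

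The mean of Fkbp5 was highest in SHR males, at 34.6 ± 3.53 CPM (SD, n = 5) against 28.6 ± 3.86 CPM (SD, n = 4) in Wistar males, a difference that did not pass the threshold. The SHR males had 34.1, 31.6, 38.3, 38.0 and 30.8 CPM, against 33.7, 29.3, 24.8 and 26.6 CPM in the Wistar males. Of the 5 SHR males, 3 lay above every Wistar male, and the groups overlapped. The log2 difference was 0.27 (SE 0.10, edgeR adjusted p = 0.0847), with a 95% interval of 1.04 to 1.40 times the Wistar level before any adjustment for the number of genes. DESeq2's Wald test, which called 17.1% of the genes tested, put Fkbp5 just under the threshold in males (log2 difference 0.28, adjusted p = 0.0487), and over the other settings tried in edgeR its adjusted p reached 0.170. It rested on single rats too: without the Wistar male replicate 2, the highest of its group, the log2 difference was 0.37 (edgeR adjusted p = 0.0299), and over the omission of each rat in turn the adjusted p lay between 0.0299 and 0.187.

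In females, Fkbp5 did not separate the strains. Wistar females had 25.97, 26.3, 23.4, 35.7 and 26.95 CPM and SHR females 31.3, 24.8, 27.8, 33.9 and 24.7 CPM. The Wistar female replicate 4 stood apart from the other 4 rats of its group and above every SHR female. The log2 difference was 0.04 (SE 0.12, edgeR adjusted p = 0.909), and 0.15 without that rat (edgeR adjusted p = 0.472).

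Sgk1 was the member that differed between the strains, in both sexes. Wistar males had 23.1, 27.2, 31.0 and 20.5 CPM, and SHR males 63.8, 75.9, 100.3, 64.7 and 96.3 CPM. Wistar females had 35.5, 29.4, 25.01, 34.4 and 22.4 CPM, and SHR females 49.5, 63.0, 98.7, 52.6 and 39.1 CPM. The lowest of the 10 SHR libraries, at 39.1 CPM in a female, was above the highest of the 9 Wistar libraries, at 35.5 CPM in a female. Of the 17432 genes compared, 120 were higher in every SHR library than in every Wistar library (0.688%), and Sgk1 was 1 of them. The same held for 6.92% of genes when only males were compared and for 2.26% when only females were.

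In males Sgk1 rose 3.15 times in SHR, with a log2 difference of 1.66 (SE 0.16, 95% interval 2.48 to 4.00 times, edgeR adjusted p = 1.01e-04). It ranked 28th by p among 17461 genes, and its difference was larger in size than that of 98.4% of them. In that comparison 12% of genes were called, and Sgk1 was the only 1 of the 4 members among them. In females Sgk1 rose 2.05 times, with a log2 difference of 1.04 (SE 0.22, 95% interval 1.46 to 2.88 times, edgeR adjusted p = 0.0342), where 2.32% of genes were called and again 1 of the 4 members. Averaged over the sexes the difference was 1.35 (SE 0.15, edgeR adjusted p = 6.27e-06), against 15.1% of genes called and 1 of the 4 members.

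The male call held whichever rat was left out, with log2 differences from 1.57 to 1.77 and adjusted p up to 0.000535 by edgeR. In edgeR's fit of the 2 female groups, the female call was close to the threshold. It was lost in 5 of the 10 fits that left out 1 rat, namely SHR female replicates 1, 2 and 4 and Wistar female replicates 2 and 3, with adjusted p between 0.0555 and 0.0791 and log2 differences between 0.99 and 1.10. Without SHR female replicate 3, the rat with the highest Sgk1 of its group, the log2 difference was 0.80 and the call was kept (edgeR adjusted p = 0.0352). Settings that called more genes put Sgk1 in females farther below the threshold. Its adjusted p was 1.53e-04 by DESeq2's Wald test, which called 1097 genes. With all 4 groups in 1 edgeR fit, which called 1104 genes, the adjusted p was 0.00477.

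The start of Sgk1 is shown because this is the gene whose level set the strains apart. The sequences are 300 bases long, 250 before and 50 after each of 3 annotated RefSeq starts on the minus strand of assembly GRCr8, read 5′ to 3′ along the gene, while the counts were made on Rn7. Capitals mark the letters TATAAA, the core of a TATA box.
Sgk1 chr1:24807182-24807481: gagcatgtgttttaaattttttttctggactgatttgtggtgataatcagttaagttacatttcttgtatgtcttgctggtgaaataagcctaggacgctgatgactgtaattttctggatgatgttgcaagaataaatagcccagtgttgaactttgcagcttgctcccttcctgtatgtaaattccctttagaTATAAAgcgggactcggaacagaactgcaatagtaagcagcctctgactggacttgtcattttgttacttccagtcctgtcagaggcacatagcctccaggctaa
Sgk1 chr1:24805521-24805820: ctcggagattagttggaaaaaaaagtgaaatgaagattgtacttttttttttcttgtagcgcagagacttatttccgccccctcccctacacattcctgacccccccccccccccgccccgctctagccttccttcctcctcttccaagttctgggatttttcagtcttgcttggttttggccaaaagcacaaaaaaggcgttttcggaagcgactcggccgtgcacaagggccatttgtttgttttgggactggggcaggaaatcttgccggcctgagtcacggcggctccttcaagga
Sgk1 chr1:24804782-24805081: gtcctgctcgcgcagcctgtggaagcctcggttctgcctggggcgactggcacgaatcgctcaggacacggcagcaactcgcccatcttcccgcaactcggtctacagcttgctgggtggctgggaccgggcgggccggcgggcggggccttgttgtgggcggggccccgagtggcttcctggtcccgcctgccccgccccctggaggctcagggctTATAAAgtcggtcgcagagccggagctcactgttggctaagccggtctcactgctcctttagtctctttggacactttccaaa
TATAAA was found in 2 of the 3 windows, 55 and 33 bases before the start, and 14.2% of 33469 RefSeq promoter windows of this length hold these letters on either strand. GC content was 40.7%, 51.7% and 66.0% in the order shown, so the 3 starts lie in sequence of unlike composition. The glucocorticoid response element, the palindrome that both receptors bind as dimers, was searched as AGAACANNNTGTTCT. Neither it nor its 6-letter repeat TGTTCT, which overlaps it, was found on either strand in these windows, in the window of Fkbp5 or in the 2 windows of Nr3c1. In all, 0.0149% of the promoter windows hold the whole element and 20.7% the 6-letter repeat. Absence of these letters within 300 bases says nothing about receptor binding elsewhere. Gene-level counts do not tell which of the 3 starts was used.

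**Figure D2:**
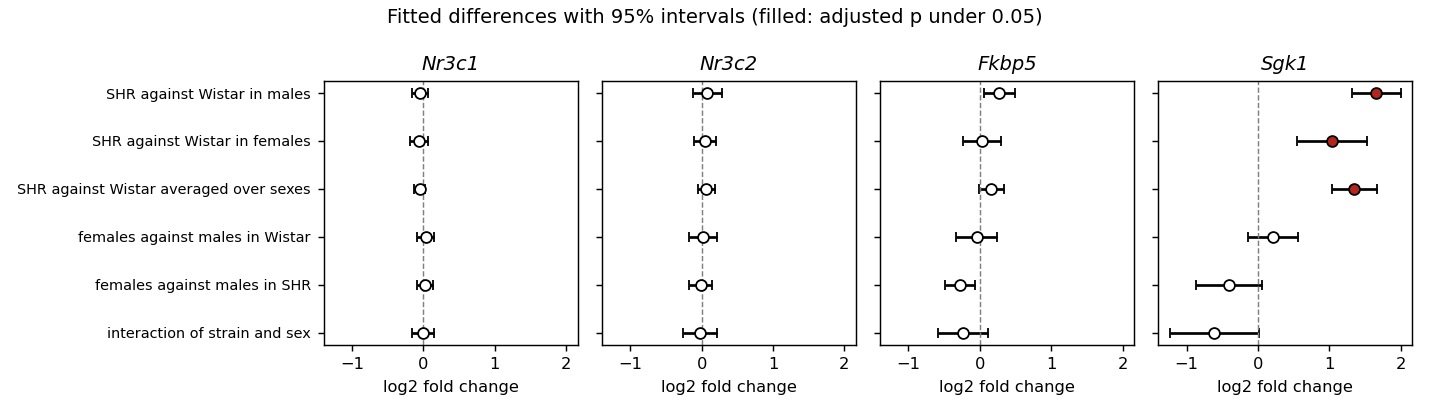
Log2 fold changes with 95% intervals for the 4 genes in the 6 comparisons, from edgeR, with filled points where the adjusted p over all genes was under 0.05. The 3 filled points are the strain differences of Sgk1 in males (1.66), in females (1.04) and averaged over the sexes (1.35), and the intervals of Nr3c1 and Nr3c2 all span 0.

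Between the sexes, none of the 4 members was called in either strain. By edgeR 0.0629% of genes were called in Wistar and 0.0694% in SHR, which is 11 and 12 genes. DESeq2 called 20 and 303, with no member among them. The groups of the 2 sexes did not overlap for 1.49% of genes in Wistar and 3.11% in SHR, and no member was among these. Fkbp5 came nearest in SHR, where females had a mean of 28.5 ± 4.04 CPM (SD, n = 5) and males 34.6 ± 3.53 CPM (SD, n = 5). The log2 difference of females against males was -0.28 (SE 0.10), with an unadjusted p of 0.0127 and an adjusted p of 0.230 by edgeR. In Wistar the same difference was -0.04 (SE 0.13, edgeR adjusted p = 0.955).

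Sgk1 was at 60.6 ± 23.0 CPM (SD, n = 5) in SHR females and 80.2 ± 17.2 CPM (SD, n = 5) in SHR males, a log2 difference of -0.40 (SE 0.21, edgeR adjusted p = 0.388). In Wistar it was at 29.3 ± 5.71 CPM (SD, n = 5) in females and 25.4 ± 4.65 CPM (SD, n = 4) in males, a log2 difference of 0.21 (SE 0.16, edgeR adjusted p = 0.909). The strain difference of Sgk1 was thus smaller in females than in males by 0.61 on the log2 scale. The interaction of strain and sex, which tests that gap, had an SE of 0.30, an unadjusted p of 0.0560 and an adjusted p of 0.380, so a different response of the sexes was not shown. Over the omission of each rat in turn, the interaction of Sgk1 lay between -0.858 and -0.496 (edgeR adjusted p between 0.176 and 0.616). Without SHR female replicate 3, the difference of females against males in SHR was -0.65 (SE 0.15, edgeR adjusted p = 0.174). For Fkbp5 the interaction was -0.23 (SE 0.17, edgeR adjusted p = 0.521). Across all genes edgeR called 0 interactions (0%), with 2332 genes at an unadjusted p under 0.05, and DESeq2 called 48 genes, none of which was a member. For the receptors the sex differences were small, between -0.01 and 0.03 on the log2 scale in the 2 strains, and their interactions were -0.01 for Nr3c1 and -0.02 for Nr3c2.

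Rats of the same group also differed in how uniform the 4 genes were. The SD of log2 CPM within groups was 0.0743 for Nr3c1, 0.127 for Nr3c2, 0.194 for Fkbp5 and 0.357 for Sgk1, against a median of 0.177 over all genes. Set beside genes within a factor of 2 of the same mean level, Sgk1 varied more than 97.5% of 5230 genes and Fkbp5 more than 79.8% of 5312 genes. Nr3c1 varied more than 20.3% of 3301 such genes, and Nr3c2 more than 48.9% of 5294. Sgk1 was most variable in SHR females, where its highest library held 2.53 times the CPM of its lowest, and the SD of 0.4995 there was above that of 99.1% of genes of similar level. The receptors were therefore the steadier and the targets the more variable of the 4, in the spread over all groups. In males the SD of Nr3c2 was near that of Fkbp5, at 0.181 against 0.191 in Wistar and 0.135 against 0.147 in SHR.

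Whether the targets followed the receptors between rats was asked within groups, by subtracting each group's mean log2 CPM and relating the deviations of the 19 libraries. A correlation was tested by shuffling rats within groups, two-sided, with adjustment over the 6 pairs that the 4 genes form. Both values of a point come from the same library, so they also share its tissue, its depth and its TMM factor. These factors ran from 0.927 to 1.08 over the libraries. Sgk1 followed Nr3c1, with r = 0.763 (permutation p = 0.00121, adjusted 0.00726) and Spearman's rho = 0.730 (permutation p = 0.00173, adjusted 0.0104). The order of the libraries was shared in part. The rat with the most Nr3c1 in its group also had the most Sgk1 in Wistar males, SHR males and SHR females, and the rat with the least Nr3c1 had the least Sgk1 in SHR males, Wistar females and SHR females. It was otherwise in Wistar females, where replicate 3 had the most Nr3c1 (126.5 CPM) but 25.01 CPM of Sgk1, the second lowest level of the group. In Wistar males, replicate 2 had the least Nr3c1 (114.8 CPM) but more Sgk1 (23.1 CPM) than replicate 5 (20.5 CPM). In SHR females, replicate 3 had the most of both, with 130.4 CPM of Nr3c1 and 98.7 CPM of Sgk1, and replicate 5 the least of both, with 111.3 and 39.1 CPM. Without TMM factors, the most of both still lay in the same rat in Wistar males and SHR females, and the least in SHR males. In SHR males, replicate 5 then had the most Nr3c1 (119.7 CPM) but less Sgk1 (96.7 CPM) than replicate 3 (97.3 CPM). Replicate 1 then had the least Nr3c1 in Wistar females (114.1 CPM) and SHR females (111.7 CPM). Its Sgk1 was the lowest in neither group (32.9 and 49.2 CPM). No correlation was tested without such factors.

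Among all 17431 other genes tested, Nr3c1 had the 4th highest correlation with Sgk1, where the highest was 0.787 and 90% of genes lay between -0.50 and 0.49. Sgk1 in turn was the 19th highest partner of Nr3c1. Both ranks count positive correlations only. On the negative side, r with Sgk1 was between -0.90 and -0.85 for 1 gene and between -0.85 and -0.80 for 5. With Nr3c1 these ranges held 1 and 6 genes. The relation was positive in Wistar libraries alone (r = 0.670, n = 9, exact permutation p = 0.0722, adjusted 0.358) and in SHR libraries alone (r = 0.810, n = 10, exact permutation p = 0.0115, adjusted 0.0346). It was also positive in males (r = 0.868, n = 9, exact permutation p = 0.0104, adjusted 0.0625) and in females (r = 0.713, n = 10, exact permutation p = 0.0466, adjusted 0.140). Without the 2 libraries farthest from the median of Nr3c1, r was 0.588 (permutation p = 0.0273, adjusted 0.164), so the call after adjustment rested on those libraries. SHR female replicate 3 alone decided it too, with r = 0.645 and an adjusted p of 0.0623 without that rat in the permutation test. Between strains the pattern was unlike that between rats, since Sgk1 was higher in SHR while the log2 difference of Nr3c1 averaged over the sexes was -0.05 (SE 0.04, edgeR adjusted p = 0.374).

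**Figure D3:**
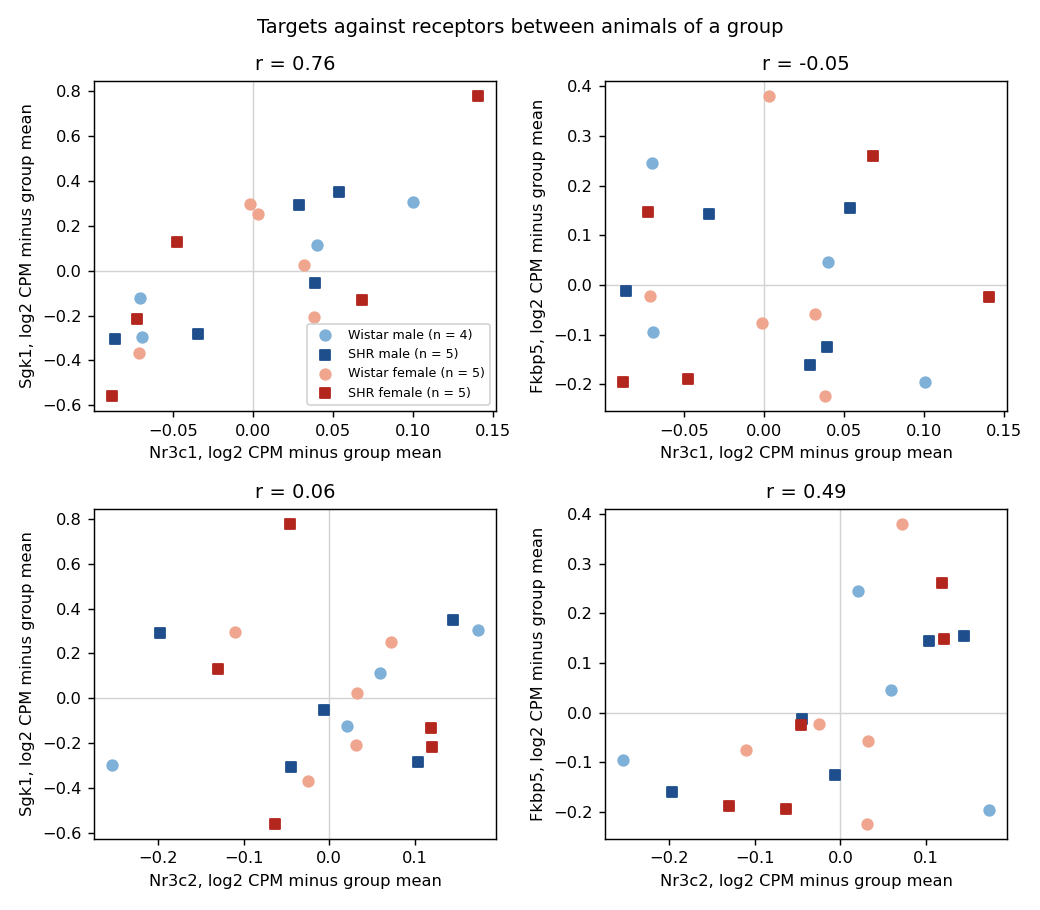
Each target against each receptor in the 19 libraries, both axes in log2 CPM minus the mean of the group, with colours and shapes for the 4 groups and Pearson's r above each panel. Sgk1 climbs with Nr3c1 (r = 0.763), the points of Fkbp5 against Nr3c2 lie more loosely along a rising line (r = 0.493), and the other pairs of receptor and target have r of -0.053 and 0.058.

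No relation of Fkbp5 with Nr3c1 was shown (r = -0.053, permutation p = 0.842; rho = -0.021, permutation p = 0.939), although its product acts on that receptor. With Nr3c2 the correlation of Fkbp5 was 0.493 (permutation p = 0.0409, adjusted 0.123) and rho was 0.465 (permutation p = 0.0682, adjusted 0.205), so it missed the threshold after adjustment. Without the 2 libraries farthest from the median of Nr3c2, r was 0.466 (permutation p = 0.0867, adjusted 0.260). The strains gave unlike values. In SHR libraries alone r was 0.891 (n = 10, exact permutation p = 0.00215, adjusted 0.0129), and in Wistar libraries alone it was 0.131 (n = 9, exact permutation p = 0.776, adjusted 0.776). That difference between strains was not tested. A single Wistar male, replicate 4, with the most Nr3c2 and the least Fkbp5 of its group, moved it most, and without that rat r over the other 18 libraries was 0.707 (permutation test, adjusted p = 0.00993).

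None was shown for Sgk1 with Nr3c2 (r = 0.058, permutation p = 0.824; rho = 0.151, permutation p = 0.576), or for the 2 targets with each other (r = 0.044, permutation p = 0.875; rho = 0.002, permutation p = 0.997). The 2 receptors gave r = 0.333 (permutation p = 0.237; rho = 0.388, permutation p = 0.161). Of the 6 pairs, Nr3c1 with Sgk1 was the only 1 past the threshold after adjustment. Against the range of correlations over all genes, Fkbp5 with Nr3c2 lay above 94.7% of the partners of Nr3c2, near the upper end of the 90% of genes between -0.51 and 0.50.

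**Figure D4:**
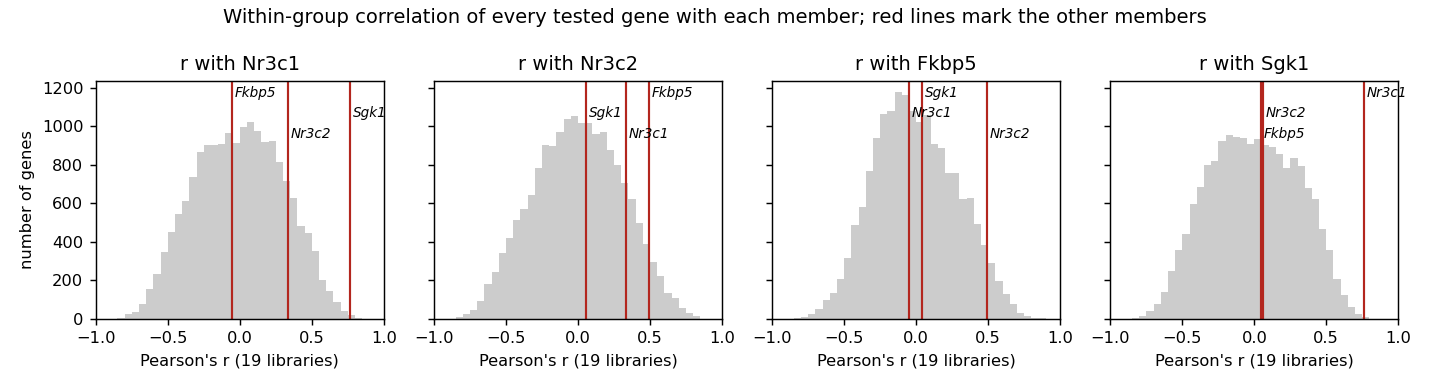
Number of genes by Pearson's r of their group-centred log2 CPM with each of the 4 genes over 19 libraries (17431 genes per panel), with red lines at the other members. The line for Sgk1 and Nr3c1 at 0.763 lies in the far upper tail of both panels, Fkbp5 with Nr3c2 at 0.493 lies near the end of the bulk, and the remaining lines fall inside it.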

How the data were processed

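The deposited table holds raw counts per gene, without normalization or filter, which the authors made by trimming reads with Trimmomatic (Phred 30), aligning them with STAR to Rn7 and counting with featureCounts. The library kit was stranded and selected polyadenylated RNA. The annotation and the counting settings are not given in the sources used here. All 19 columns were mapped by their labels.

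Genes with a mean above 5 median-of-ratios normalized counts over the libraries of a fit were tested with edgeR 4.0.16 in R 4.3.3, with TMM factors and Benjamini-Hochberg adjustment over all of them. Pairwise fits held the 2 groups compared, and the averaged strain difference and the interaction held all 4 groups. CPM came from edgeR with TMM factors over 19 libraries, and log2 CPM used a prior count of 2. Correlations were tested with 100000 permutations within groups, or exactly within a strain or sex. DESeq2 1.42.0 gave the alternative Wald test. Python 3.11.15, numpy 2.4.6, pandas 2.3.3, scipy 1.17.1 and matplotlib 3.10.9 were used for the rest. The fits and correlations were tested on simulated data.

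The 4 members and all lists were chosen with earlier results of these data known. The genes named are these 4; lists of other pathway genes and of cell type markers, and the genes most like each member, were not used here, as no table paired their symbols with the identifiers. RefSeq symbols matched 4 of 4 members, and promoter windows were found for 3 of them. For Nr3c2 no sequence is given. Alternatives were another tool, other normalizations, filters and adjustments, the replicate number in the fit, all groups in 1 fit and leaving out each library. Halved counts and the sexes alone were added after seeing the data.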

Additional observations from a re-analysis of the deposited data

Results flagged for a closer look

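In 4 groups and 4 genes, 16 sets of libraries were searched for a highest or lowest library far from the rest, and chance alone would mark about 1 in 20 of them. A single library stood out, that of Wistar female replicate 4 in Fkbp5, at 35.7 CPM against 23.4 to 26.95 CPM in the other 4 Wistar females. Its gap to the next library was 0.712 of the range of the group, against a limit of 0.710 for 5 samples. The same rat had the most Nr3c2 of its group, at 28.6 CPM.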

How the results depend on the processing

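Of 624 values recomputed for 28 results, 573 kept direction and side of the threshold, 11 lost a call, 4 gained 1 and 36 changed sign, all of the last in results that were not called. The strain differences of Sgk1 kept their direction in all 64 alternatives and their call in 58, and the 6 losses were in females: 1.04 with Bonferroni adjustment, and the 5 omissions named above. Fkbp5 in males was called by DESeq2 (0.28) and without Wistar male replicate 2 (0.37). The correlation of Nr3c1 and Sgk1 lost its call without the 2 farthest libraries (0.588), in Wistar (0.670), males (0.868) and females (0.713). It also lost its call without SHR female replicate 3 (0.645). That of Nr3c2 and Fkbp5 gained a call in SHR (0.891) and without Wistar male replicate 4 (0.707). For Nr3c1 and Fkbp5 the sign turned without the 2 farthest libraries (0.127), in SHR (0.211) and in females (0.168), and for Nr3c2 and Sgk1 in SHR (-0.197) and females (-0.229). The cause of these changes was not tested.

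Leaving out each library gave log2 differences of 0.21 to 0.37 for Fkbp5 in males, -0.0275 to 0.150 for Fkbp5 and 0.80 to 1.17 for Sgk1 in females. Between the sexes they were -0.0622 to 0.0757 for Nr3c2 and -0.155 to 0.0438 for Fkbp5 in Wistar, and -0.0157 to 0.0410 for Nr3c1 and -0.0579 to 0.0213 for Nr3c2 in SHR. Interactions were -0.0467 to 0.00819 for Nr3c1 and -0.0839 to 0.0454 for Nr3c2. Correlations were -0.175 to 0.078 for Nr3c1 and Fkbp5, 0.645 to 0.825 for Nr3c1 and Sgk1, 0.437 to 0.707 for Nr3c2 and Fkbp5, and -0.114 to 0.187 for Nr3c2 and Sgk1.

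Counts over all genes moved more than the members. Strain calls in females numbered 403, against 1097 by DESeq2, 1104 with all groups in 1 fit, 835 with the replicate number as a linear term, and 174 to 811 without a library. In males 2102 genes were called, 1203 to 1883 without a library. Sex calls numbered 12 in SHR, against 303 by DESeq2 and 24 with the linear term, and 11 in Wistar, against 20 by DESeq2. Interactions numbered 0, against 48 by DESeq2 and 32 with the replicate block. Bonferroni adjustment left 87 genes in males, 40 in females and 246 in the average.

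Libraries with the same replicate number did not deviate together in every pair (correlations of -0.059 to 0.150 between strains in males and -0.065 to 0.353 in females), so the numbers were not taken as pairs. Their mean was 0.075 in males and 0.090 in females, against -0.019 and -0.022 between libraries of other numbers. The SHR library most alike bore the same number for 3 of 4 Wistar males and 3 of 5 Wistar females. Whether the numbers mark a shared batch was not tested. With the replicate block, Sgk1 differed by 1.72 in males and 0.98 in females (edgeR adjusted p = 0.0474), and no call of a member changed.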
